A study of Danio rerio with 12 samples.

Results

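The subject is the genotype by oxygen interaction in zebrafish larvae, that is, for each gene, the response to hypoxia in gcn2-deficient larvae minus the response to hypoxia in wild-type larvae. The measure was (knockout hypoxia − knockout normoxia) − (wild-type hypoxia − wild-type normoxia) on log2(FPKM + 1), where FPKM is fragments per kilobase of gene length, scaled by a divisor for each library. All 12 of the 12 libraries of the series entered it, and 21480 of the 35004 genes in the table had at least 1 FPKM in at least 3 libraries and were tested. The 4 groups were wild-type larvae in normoxia, gcn2 knockout larvae in normoxia, wild-type larvae in hypoxia and gcn2 knockout larvae in hypoxia, with 3 libraries each, given below in the order of replicates 1 to 3. All larvae were whole animals at 3 days after fertilization, raised at 28.5 °C, and the exposure to either oxygen condition lasted 8 hours. The labels call the libraries of a group biological replicates. They give neither the oxygen level nor the kind of gcn2 allele, and they do not say whether the wild-type larvae were siblings of the knockouts or how many larvae went into a library. In whole-larva RNA, fewer cells of a type and less RNA per cell cannot be told apart.

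Gcn2, the product of eif2ak4, is a protein kinase that is activated by uncharged tRNA and stalled ribosomes and phosphorylates the translation factor eIF2. Phosphorylated eIF2 lowers general protein synthesis and favours translation of the transcription factor Atf4, whose targets include genes of amino acid uptake and synthesis. This branch is called the integrated stress response, and other kinases can feed it. Low oxygen acts in parallel through the hypoxia-inducible factors (HIF), which turn on genes of glycolysis, red cell formation and mitophagy.

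A positive difference means that a gene's change with hypoxia was more upward, or less downward, in the knockout. Errors after ± are standard errors (SE) of the fit, and adjusted p-values come from limma with Benjamini-Hochberg adjustment over the 21480 genes. A gene is called when its adjusted p is under 0.05. A difference on this scale understates the change of genes with low FPKM.

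The libraries held between 15668848 and 16841145 reads recovered from the FPKM, and between 27371 and 27656 genes above 0. The divisor implied by the FPKM, relative to the recovered reads, was 1.01 to 1.04 in normoxic wild type and 1.06 to 1.07 in normoxic knockouts. It was 0.95 to 0.997 in hypoxic wild type and 0.94 to 0.98 in hypoxic knockouts. The deposited values were therefore not scaled to the recovered reads alone, and their scaling differed between the groups. The sum of FPKM ran from 469865 to 486327 in normoxic wild type and from 452422 to 460098 in normoxic knockouts. In hypoxic wild type it was 473732 to 512876 and in hypoxic knockouts 499059 to 530495. These sums do not cancel in the interaction, so rescaling each library to a common sum (TPM scaling) moved the median difference over all genes from 0.03 to -0.08, a shift of -0.11. The targeted gene eif2ak4 (ENSDARG00000104276, GRCz11 scaffold KN150326.1, 26197 to 105474) measured 3.82, 3.91 and 3.63 FPKM in normoxic wild type, 1.66, 1.85 and 1.7 in normoxic knockouts, 4.23, 4.18 and 4.25 in hypoxic wild type and 1.55, 1.95 and 1.52 in hypoxic knockouts. Every knockout library was below every wild-type library, in both oxygen conditions. The genotype difference was -0.81 ± 0.08 in normoxia and -0.97 ± 0.08 in hypoxia, and the difference between the hypoxia responses was -0.16 ± 0.11 (adjusted p = 0.377), not called.

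The response to hypoxia differed between the genotypes for 1986 of the 21480 genes, which is 9.25% of those tested. Of these, 1019 (4.74%) were more upward in the knockout and 967 (4.5%) more downward. The interquartile range of the differences over all genes was -0.16 to 0.20, and the median absolute difference of the called genes was 0.50. A difference of at least 1 was reached by 89 called genes, 49 upward and 40 downward. At an unadjusted p under 0.05 there were 5925 genes (27.6%). All 1986 called genes kept their sign when each library was left out in turn, and 401 of them (233 upward and 168 downward) were still called in each of those 12 fits.

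The counts moved with single libraries. Each total is followed by the upward and downward calls in parentheses. Leaving out wild-type normoxia 1, 2 or 3 gave, in that order, 480 (282 and 198), 1975 (1000 and 975) and 655 (384 and 271). For knockout normoxia the totals were 1040 (543 and 497), 1085 (601 and 484) and 557 (326 and 231). For wild-type hypoxia they were 2839 (1507 and 1332), 997 (507 and 490) and 2251 (1165 and 1086). For knockout hypoxia they were 611 (339 and 272), 1242 (644 and 598) and 1957 (1065 and 892). The bar plot of calls by setting shows both directions for each of these fits. Over all 21480 genes TPM scaling called 409 upward and 1698 downward, and quantile normalization 658 and 1066. List counts given below for any refit have the totals of that fit as background, not the 4.74% and 4.5% of the reported fit.

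**Figure D1:**
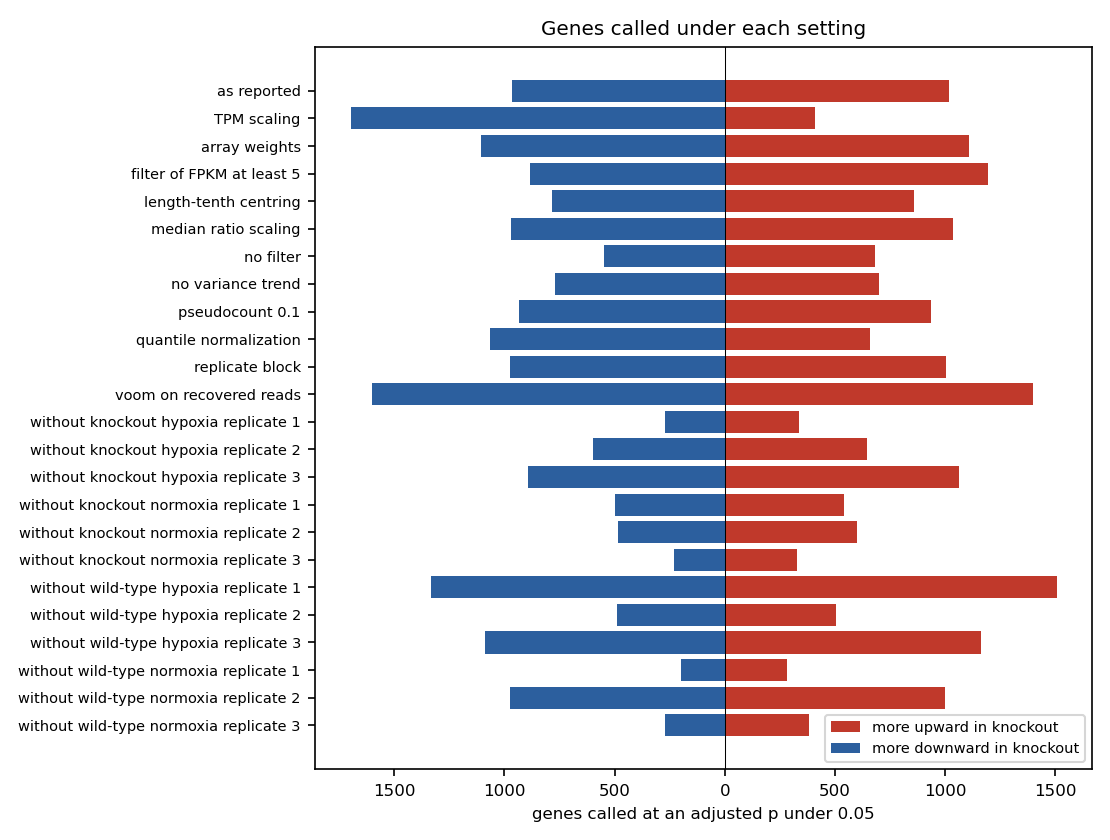
Number of genes called at an adjusted p under 0.05 (x axis, to the right for genes more upward in the knockout and to the left for genes more downward) as reported and under each alternative. The reported fit has 1019 and 967 genes, TPM scaling 409 and 1698, and leaving out wild-type normoxia 1 gives 282 and 198.

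Most of the called genes separated the genotypes in hypoxia rather than in normoxia. The genotype difference was called in hypoxia alone for 1346 genes (67.8%), in normoxia alone for 301 (15.2%), in both with opposite signs for 91 and in both with the same sign for 161. Among all genes tested, the genotype difference was called for 33.1% in hypoxia and for 16.7% in normoxia. The 3 knockout hypoxia libraries lay above all other 9 libraries for 595 of the 1019 upward genes (58.4%, against 10.6% of all genes) and below all other 9 for 503 of the 967 downward genes (52%, against 10.1% of all genes). The calls were made on these same values, so this separation, here and for single genes below, is a description and no further support.

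Seen as responses, 423 of the upward genes rose with hypoxia in the knockout with no call in wild type, 204 fell in wild type with no call in the knockout, 317 were called in the same direction in both genotypes and 68 in opposite directions. For the downward genes the largest class was a fall in the knockout with no call in wild type (569 genes), followed by a rise in wild type with no call in the knockout (202), the same direction in both (98) and opposite directions (87). Over all genes, hypoxia was called for 36% in wild type and for 44% in the knockout. Of the 7723 genes with a call in wild type, 89.1% had the same sign in the knockout and 976 (12.6%) had a called difference between the responses. Across all genes the 2 responses had a Pearson correlation of 0.70, given as a description because genes are not independent replicates.

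**Figure D2:**
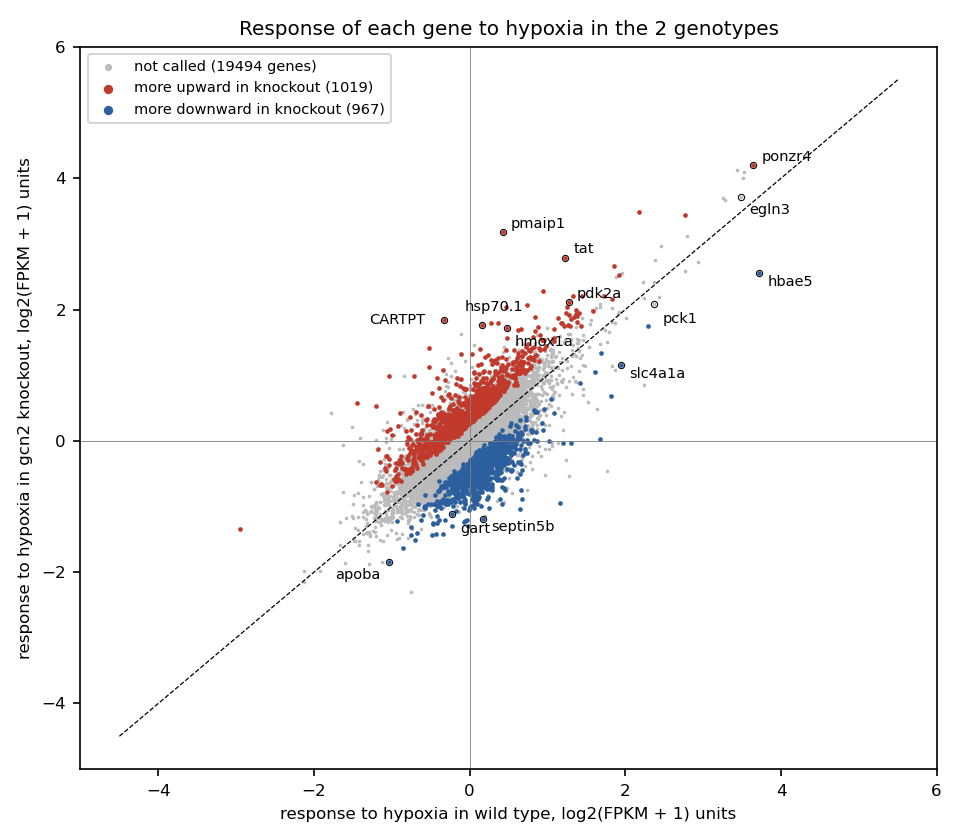
Response to hypoxia of each of the 21480 genes in wild type (x axis) and in the gcn2 knockout (y axis), both as differences of group means in log2(FPKM + 1) units. Grey points are not called, red and blue points are called as more upward or more downward in the knockout, and the dashed line marks equal responses. Pmaip1, CARTPT and hsp70.1 lie far above the line with a small response in wild type, and hbae5 and slc4a1a lie below the line with a rise in both genotypes.

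The largest difference belonged to pmaip1, which encodes Noxa, a BH3-only protein that promotes mitochondrial cell death. The gene (ENSDARG00000089307, GRCz11 chromosome 10, 8656417 to 8657684) measured 2.93, 2.22 and 2.68 FPKM in normoxic wild type, 4.57, 3.39 and 4.01 in normoxic knockouts, 3.8, 3.42 and 4.3 in hypoxic wild type and 51.8, 47.2 and 35 in hypoxic knockouts. Each knockout hypoxia library was far above the other 9, which lay within a narrow band. The response was 0.42 in wild type and 3.18 in the knockout, and the difference was 2.76 ± 0.19 (adjusted p = 8.63e-05), the smallest p of all genes. Of 28 tested genes of the p53 and cell death list, 4 were called, all upward (14.3% against 4.74% of all genes), and the list's median was 0.13 against 0.03 over all genes. The other called members were baxa, a pore-forming death effector, with 0.41 ± 0.09 (adjusted p = 0.0223), sesn1, a stress-induced regulator of mTORC1, with 0.33, and gadd45ab, a growth arrest gene, with 0.43. Baxa's call was lost under TPM scaling and without knockout normoxia 1, wild-type normoxia 3, knockout hypoxia 1, knockout normoxia 3 or wild-type normoxia 1 (adjusted p from 0.0502 to 0.0837). For the p53 list the number of upward calls was 1 without knockout hypoxia 1, knockout normoxia 1 or wild-type normoxia 3, and 2 without knockout normoxia 3, wild-type hypoxia 2 or wild-type normoxia 1. The p53 list had 1 upward and 0 downward calls under TPM scaling and 3 and 0 under quantile normalization.

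Heat shock chaperones had 8 calls among 30 tested genes, all upward (26.7% against 4.74% of all genes, median 0.14). Hsp70.1 (ENSDARG00000029688, GRCz11 chromosome 3, 26112780 to 26115559), an inducible Hsp70, measured 0.912, 0.789 and 0.93 FPKM in normoxic wild type, 1.003, 0.641 and 0.681 in normoxic knockouts, 1.3, 1.13 and 0.866 in hypoxic wild type and 4.79, 5.76 and 4.48 in hypoxic knockouts. The 3 knockout hypoxia libraries stood apart from all others, and the other groups overlapped with one another. The difference was 1.6 ± 0.17 (adjusted p = 0.000748). Hsp70l measured 0.96, 0.919 and 0.85 FPKM in normoxic wild type, 0.85, 0.492 and 0.604 in normoxic knockouts, 2.43, 1.23 and 1.4 in hypoxic wild type and 5.66, 6.97 and 4.72 in hypoxic knockouts, with a difference of 1.57 ± 0.23 (adjusted p = 0.00557). These Hsp70 genes are near-identical copies, so how reads were shared among them is uncertain. Hsp90aa1.2, an Hsp90 chaperone, measured 28.2, 27.7 and 28.7 FPKM in normoxic wild type, 21.5, 22.1 and 22.6 in normoxic knockouts, 15, 15.6 and 15.9 in hypoxic wild type and 27.1, 23.5 and 22.9 in hypoxic knockouts. It fell with hypoxia in wild type (-0.82) with no call in the knockout (0.14), so that the genotypes were apart in both conditions but in opposite order. The difference was 0.97 ± 0.09 (adjusted p = 0.000452). The called members also included dnajb1b at 0.77, hspb8 at 0.56 and hsp70.3 at 1.08. With single libraries left out the number of called chaperone genes ran from 6 to 9. The mitochondrial chaperone hspd1 measured 92.1, 92.4 and 94.8 FPKM in normoxic wild type, 80.4, 86.8 and 83 in normoxic knockouts, 46.1, 45.4 and 45 in hypoxic wild type and 42, 44.5 and 44.7 in hypoxic knockouts. It fell in both genotypes, and the difference of 0.10 ± 0.06 (adjusted p = 0.326) was not called.

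Haem breakdown and iron genes followed. Hmox1a (ENSDARG00000027529, GRCz11 chromosome 3, 26011482 to 26017831), the haem oxygenase that opens the haem ring, measured 6.83, 7.999 and 7.92 FPKM in normoxic wild type, 8.78, 8.32 and 8.21 in normoxic knockouts, 10.9, 10.00 and 11.8 in hypoxic wild type and 33.4, 28.8 and 28.6 in hypoxic knockouts. Hypoxia raised it in both genotypes, by 0.47 in wild type and 1.73 in the knockout, and all knockout hypoxia libraries were above the other 9. The difference was 1.25 ± 0.11 (adjusted p = 0.000452). Hamp, which encodes the iron hormone hepcidin, measured 7.15, 4.21 and 6.59 FPKM in normoxic wild type, 6.74, 5.04 and 4.98 in normoxic knockouts, 4.14, 5.84 and 6.26 in hypoxic wild type and 16, 15.7 and 14.5 in hypoxic knockouts. The knockout hypoxia libraries were above the other 9, which overlapped across groups, and the difference was 1.44 ± 0.24 (adjusted p = 0.00932). In the list of haem synthesis, breakdown and iron genes 7 of 30 were called, all upward (23.3% against 4.74% of all genes, median 0.22). The other called members included the synthesis enzymes uros (0.60) and hmbsb (0.37), the mitochondrial glycine carrier slc25a38a (0.82) and the ferritin chain fth1b (0.36). The haem and iron list had 2 upward calls without knockout hypoxia 1, knockout normoxia 3 or wild-type normoxia 1, 3 without knockout normoxia 2, wild-type hypoxia 2 or wild-type normoxia 3, and 4 without knockout hypoxia 2 or knockout normoxia 1, and the number of downward calls was 1 without knockout hypoxia 1, wild-type hypoxia 1 or wild-type normoxia 2. The haem and iron list had 4 upward and 1 downward call under TPM scaling and 6 and 1 under quantile normalization. Alas2, the erythroid enzyme of the first step of haem synthesis, measured 6.09, 7.53 and 8.22 FPKM in normoxic wild type, 3.31, 2.37 and 3.29 in normoxic knockouts, 12.4, 10.6 and 7.31 in hypoxic wild type and 3.72, 4.71 and 4.01 in hypoxic knockouts. It was lower in the knockout in both conditions, and the difference between the responses was -0.03 ± 0.23 (adjusted p = 0.949), not called.

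**Figure D3:**
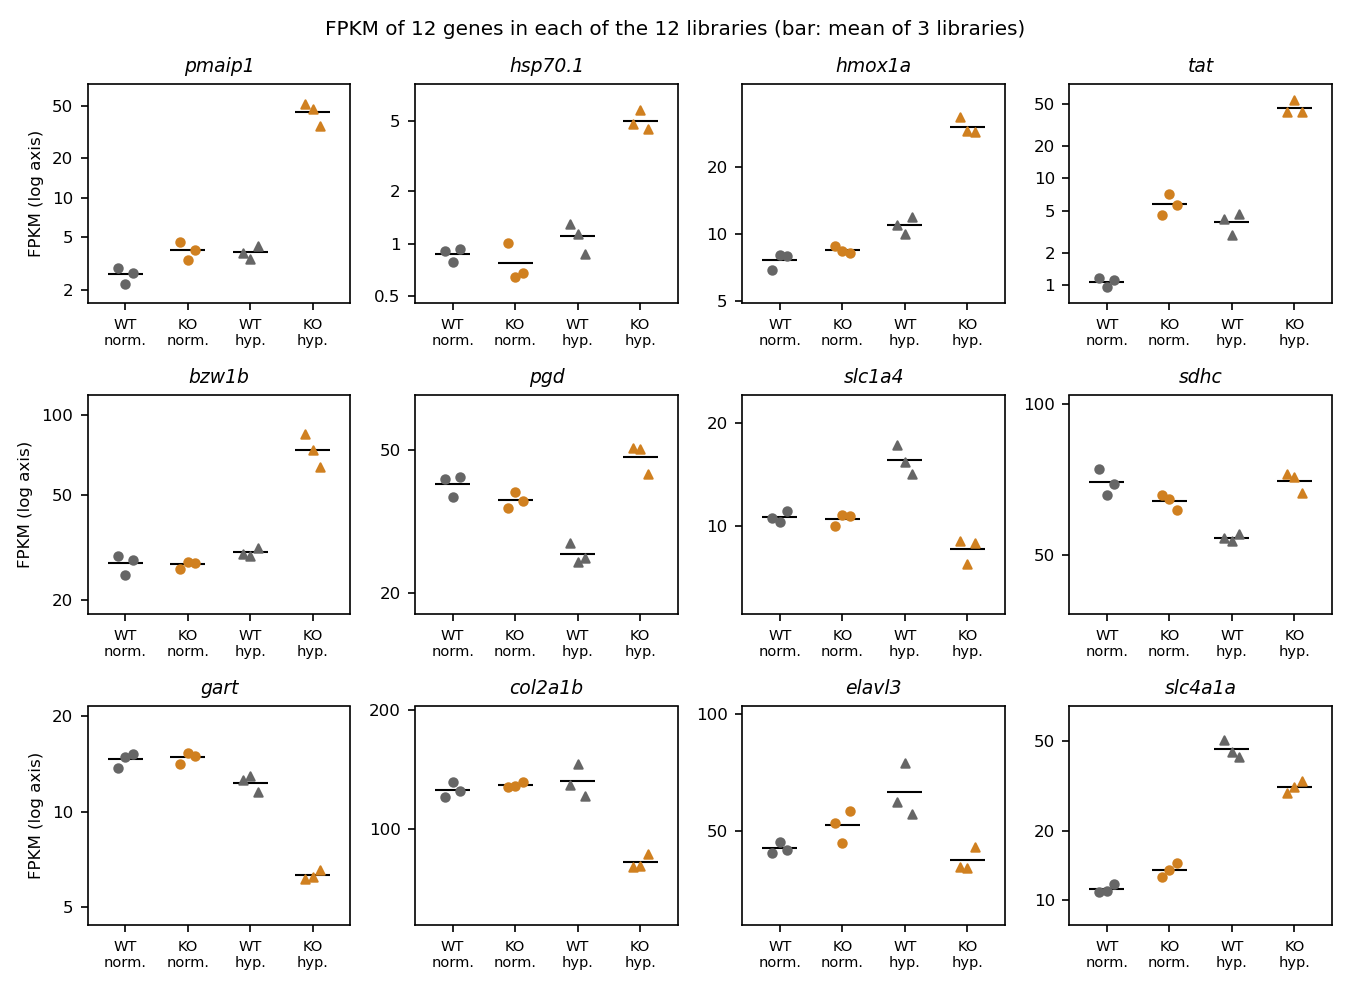
FPKM (y axis, log scale) of 12 genes in each library of the 4 groups, wild type (WT, grey) and knockout (KO, orange) in normoxia (norm., circles) and hypoxia (hyp., triangles). Black bars are means of 3 libraries. The knockout hypoxia libraries stand above all others for pmaip1, hsp70.1, hmox1a, tat, bzw1b and pgd and below all others for slc1a4, gart and col2a1b.

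Genes of glucose and amino acid use gave some of the largest differences. Tat (ENSDARG00000069630, GRCz11 chromosome 18, 13162728 to 13179510), tyrosine aminotransferase, a liver enzyme of tyrosine breakdown, measured 1.18, 0.956 and 1.11 FPKM in normoxic wild type, 4.55, 7.2 and 5.58 in normoxic knockouts, 4.18, 2.95 and 4.61 in hypoxic wild type and 41.5, 54.1 and 41.5 in hypoxic knockouts. The knockout was above wild type in both conditions, and the rise was 1.22 in wild type and 2.79 in the knockout, a difference of 1.57 ± 0.22 (adjusted p = 0.00461). Pgd, 6-phosphogluconate dehydrogenase, which makes NADPH in the pentose phosphate pathway, measured 41.5, 37 and 42 FPKM in normoxic wild type, 34.5, 38.1 and 35.9 in normoxic knockouts, 27.4, 24.4 and 25 in hypoxic wild type and 50.7, 50.2 and 42.9 in hypoxic knockouts. It fell with hypoxia in wild type and rose in the knockout, with a difference of 1.02 ± 0.11 (adjusted p = 0.000748).

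Pdk2a, a kinase that switches off pyruvate dehydrogenase, measured 17.2, 17.9 and 16.8 FPKM in normoxic wild type, 21.1, 21.4 and 20.9 in normoxic knockouts, 42, 40.2 and 47.7 in hypoxic wild type and 108, 94.1 and 84.4 in hypoxic knockouts. Hypoxia raised it in both genotypes and more in the knockout, by 0.85 ± 0.12 (adjusted p = 0.00424). Its paralogue pdk2b differed by 1.3 and pdk4 by 0.51. Of 21 tested genes of glucose output and pyruvate entry, 7 were called upward and 1 downward (g6pc1a.1, glucose-6-phosphatase, -0.53), with a median of 0.25. The upward share was 33.3% against 4.74% of all genes. The glucose output and pyruvate entry list had 4 upward calls without knockout hypoxia 1, knockout normoxia 3 or wild-type normoxia 1. For the glucose output and pyruvate entry list the number of downward calls was 0 without knockout hypoxia 1, knockout hypoxia 2, knockout normoxia 1, knockout normoxia 3, wild-type normoxia 1 or wild-type normoxia 3. The glucose output and pyruvate entry list had 5 upward and 2 downward calls under TPM scaling and 5 and 2 under quantile normalization. Pck1, the cytosolic phosphoenolpyruvate carboxykinase, measured 28.8, 25.4 and 28.2 FPKM in normoxic wild type, 49.9, 48.9 and 47.2 in normoxic knockouts, 162, 137 and 140 in hypoxic wild type and 210, 219 and 198 in hypoxic knockouts. The knockout was higher in both conditions, and the log2 difference of -0.29 ± 0.10 (adjusted p = 0.0762) was not called, while the difference on the linear scale had the opposite sign (41.5 FPKM). Pck1 gained its call under quantile normalization, under TPM scaling and with voom (adjusted p from 0.00972 to 0.029). Among 31 glycolytic enzymes 4 were called, all upward (12.9% against 4.74% of all genes), with a median of 0.14. The glycolysis list had 2 upward calls without any single library other than knockout hypoxia 3, wild-type hypoxia 1, wild-type hypoxia 3 or wild-type normoxia 2, and 9 without wild-type hypoxia 1, and the number of downward calls was 2 without wild-type hypoxia 3. The glycolysis list had 2 upward and 2 downward calls under TPM scaling and 2 and 1 under quantile normalization, with a median of -0.01 under the latter. Ldhbb, a lactate dehydrogenase, measured 14.2, 13.9 and 12.1 FPKM in normoxic wild type, 15.8, 17.7 and 17.9 in normoxic knockouts, 16.7, 16.3 and 21.5 in hypoxic wild type and 37.6, 37.5 and 36.7 in hypoxic knockouts, a difference of 0.67 ± 0.13 (adjusted p = 0.0175). Pfkma, the muscle phosphofructokinase, differed by 0.37 ± 0.07 (adjusted p = 0.0175).

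The integrated stress response list was split. Of 39 tested genes 7 were more upward (17.9% against 4.74% of all genes) and 2 more downward (5.13% against 4.5% of all genes), and the median was 0.09. The integrated stress response list had 1 downward call without knockout hypoxia 1, knockout normoxia 2, knockout normoxia 3, wild-type hypoxia 2, wild-type normoxia 1 or wild-type normoxia 3. The integrated stress response list had 7 upward and 6 downward calls under TPM scaling and 5 and 3 under quantile normalization, with a median of -0.04 under the former. Slc1a4 (ENSDARG00000000551, GRCz11 chromosome 13, 24429918 to 24448278), a neutral amino acid transporter and an Atf4 target in mammals, measured 10.5, 10.27 and 11.1 FPKM in normoxic wild type, 10.00, 10.8 and 10.7 in normoxic knockouts, 17.2, 15.4 and 14.2 in hypoxic wild type and 9.001, 7.7 and 8.91 in hypoxic knockouts. It rose in wild type and fell in the knockout, and the knockout hypoxia libraries were below all others. The difference was -0.78 ± 0.11 (adjusted p = 0.00438). The glutamine and alanine transporter slc38a2 was the other downward member (-0.50). CTH, cystathionine gamma-lyase, which makes cysteine, measured 23.8, 24.6 and 24.1 FPKM in normoxic wild type, 23.4, 23.6 and 23.9 in normoxic knockouts, 17.5, 16.8 and 17.6 in hypoxic wild type and 24.7, 27.1 and 23.6 in hypoxic knockouts. In wild type it fell with hypoxia and in the knockout it was not called, a difference of 0.54 ± 0.08 (adjusted p = 0.00461). Slc1a5, a glutamine transporter, differed by 0.62, psat1, an enzyme of serine synthesis, by 0.79, nupr1a by 0.65, pck2, the mitochondrial phosphoenolpyruvate carboxykinase, by 0.51 and the transcription factor cebpb by 0.58.

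The Atf4 genes themselves and several of its best known targets had no called difference. Atf4a measured 216, 224 and 226 FPKM in normoxic wild type, 165, 167 and 160 in normoxic knockouts, 281, 254 and 258 in hypoxic wild type and 231, 192 and 210 in hypoxic knockouts. It rose with hypoxia in both genotypes from a lower level in the knockout, and the difference was 0.11 ± 0.09 (adjusted p = 0.477). Atf4b measured 99.8, 102 and 107 FPKM in normoxic wild type, 95.9, 96.9 and 92.7 in normoxic knockouts, 106, 106 and 105 in hypoxic wild type and 98.7, 96.4 and 94.9 in hypoxic knockouts, with a difference of -0.02 ± 0.06 (adjusted p = 0.882). Asns, asparagine synthetase, measured 6.7, 6.81 and 7.17 FPKM in normoxic wild type, 6.01, 6.57 and 6.21 in normoxic knockouts, 5.14, 5.08 and 4.32 in hypoxic wild type and 4.34, 4.01 and 4.64 in hypoxic knockouts. It fell in both genotypes by close to the same amount (-0.43 and -0.45), and the difference of -0.01 ± 0.11 (adjusted p = 0.953) was not called. Ddit3, the stress factor Chop, differed by 0.09 ± 0.11 (adjusted p = 0.645), trib3 by 0.38 ± 0.15 (adjusted p = 0.115) and sesn2 by -0.16 ± 0.16 (adjusted p = 0.558). Chac1 is listed at 0 in every library and was not tested. Ppp1r15a, the phosphatase subunit that removes phosphate from eIF2, measured 19.1, 17.8 and 18.3 FPKM in normoxic wild type, 18.4, 18.1 and 16.9 in normoxic knockouts, 64.8, 63.3 and 60.6 in hypoxic wild type and 104, 80.1 and 76.8 in hypoxic knockouts. It rose in both genotypes and further in the knockout, by 0.49 ± 0.13 (adjusted p = 0.0343), and knockout hypoxia 1 was the highest of the 12. Ppp1r15a's call was lost after centring by gene length, with no variance trend, with no filter, under quantile normalization and without wild-type hypoxia 3, knockout normoxia 1, knockout normoxia 2, wild-type hypoxia 2, wild-type normoxia 3, knockout normoxia 3 or wild-type normoxia 1 (adjusted p from 0.0503 to 0.0846). Gcn1, the ribosome-bound activator of Gcn2, differed by -0.50 ± 0.12 (adjusted p = 0.0245). Gcn1 lost its call without knockout normoxia 1, knockout hypoxia 1, knockout normoxia 3, wild-type normoxia 3 or wild-type normoxia 1 (adjusted p from 0.0507 to 0.0621).

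Direct targets and regulators of HIF had median responses of 0.65 in wild type and 0.85 in the knockout. Of 51 tested genes 6 were called upward (11.8% against 4.74% of all genes) and 2 downward (3.92% against 4.5% of all genes), with a median difference of 0.14. For the HIF list the number of upward calls was 3 without knockout hypoxia 1, knockout normoxia 3, wild-type hypoxia 2 or wild-type normoxia 1. The HIF list had 0 downward calls without any single library other than knockout hypoxia 3, wild-type hypoxia 1, wild-type hypoxia 3 or wild-type normoxia 2, and 1 without knockout hypoxia 3, wild-type hypoxia 1 or wild-type normoxia 2. The HIF list had 3 upward and 2 downward calls under TPM scaling and 3 and 2 under quantile normalization. Bnip3lb, a mitophagy receptor, measured 17.4, 16.2 and 16.4 FPKM in normoxic wild type, 18.8, 17.5 and 18.3 in normoxic knockouts, 49.1, 40.5 and 46.1 in hypoxic wild type and 73.5, 70.8 and 68.3 in hypoxic knockouts. Both genotypes rose and the knockout hypoxia libraries were the highest, with a difference of 0.52 ± 0.09 (adjusted p = 0.0128). Ponzr4 measured 1.84, 2.02 and 2.03 FPKM in normoxic wild type, 1.51, 1.28 and 1.52 in normoxic knockouts, 38, 36.8 and 33.2 in hypoxic wild type and 47.7, 42.2 and 41.3 in hypoxic knockouts, a difference of 0.56 ± 0.10 (adjusted p = 0.0149). Ponzr4 lost its call with voom (adjusted p = 0.0758). Ndrg1b (0.62), the growth factor binding protein gene igfbp1b (0.64), the lactate dehydrogenase gene ldha (0.24) and cited2 (0.43), a HIF antagonist, were the other upward members. The histone demethylase gene kdm3b (-0.34) and the disulfide oxidase gene ero1a (-0.56) were the downward ones.

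Egln3, an oxygen-sensing prolyl hydroxylase and a strong HIF target, measured 1.96, 1.93 and 1.84 FPKM in normoxic wild type, 2.71, 2.25 and 2.45 in normoxic knockouts, 32, 32.5 and 30.3 in hypoxic wild type and 47.5, 42.5 and 43.6 in hypoxic knockouts. Its rise was 3.49 in wild type and 3.71 in the knockout, and the difference of 0.23 ± 0.09 (adjusted p = 0.128) was not called. Ddit4, an inhibitor of mTORC1, measured 8.4, 8.34 and 8.03 FPKM in normoxic wild type, 9.28, 9.02 and 10.4 in normoxic knockouts, 52.1, 49.7 and 47.7 in hypoxic wild type and 102, 73.6 and 71.7 in hypoxic knockouts. Knockout hypoxia 1 was well above its group, and the difference of 0.51 ± 0.15 (adjusted p = 0.0542) missed the threshold. Ddit4 gained its call with a filter of at least 5 FPKM and without knockout hypoxia 3 (adjusted p from 0.0334 to 0.0356). Vegfaa, the vascular growth factor, differed by 0.04 ± 0.15 (adjusted p = 0.892), and hif1ab, a HIF alpha subunit, by -0.14 ± 0.06 (adjusted p = 0.172). Epoa, erythropoietin, stayed below the filter, with between 0.217 and 1.19 FPKM.

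Among regulators of translation, bzw1b, whose mammalian counterpart mimics the initiation factor eIF5, measured 29.3, 24.9 and 28.5 FPKM in normoxic wild type, 26.4, 27.9 and 27.7 in normoxic knockouts, 29.98, 29.5 and 31.5 in hypoxic wild type and 84.6, 74 and 63.4 in hypoxic knockouts. The 9 libraries outside knockout hypoxia lay close together, and the difference was 1.26 ± 0.13 (adjusted p = 0.000748). Eif4ebp3, a repressor of cap-dependent translation, measured 11.3, 13.4 and 12 FPKM in normoxic wild type, 15.1, 15.7 and 16.1 in normoxic knockouts, 20.6, 20.3 and 22 in hypoxic wild type and 48, 45.2 and 38.3 in hypoxic knockouts, with a difference of 0.70 ± 0.11 (adjusted p = 0.00928). A related gene that the table names EIF4EBP3 (ENSDARG00000041607) differed by 0.54 ± 0.12 (adjusted p = 0.0217). EIF4EBP3 lost its call under quantile normalization and without wild-type normoxia 1 (adjusted p from 0.056 to 0.059). Of 36 genes of mTORC1 and nutrient sensing 5 were called, all upward (13.9% against 4.74% of all genes), and the list's median was 0.04. For the mTORC1 list the number of upward calls was 1 without wild-type normoxia 1, 2 without knockout hypoxia 1, knockout normoxia 1, knockout normoxia 3 or wild-type hypoxia 2, and 3 without knockout hypoxia 2, knockout normoxia 2, wild-type hypoxia 3 or wild-type normoxia 3, and the number of downward calls was 1 without knockout hypoxia 3 or wild-type hypoxia 3. The mTORC1 list had 2 upward and 2 downward calls under TPM scaling and 1 and 0 under quantile normalization, with a median of -0.08 under the former. Cytosolic ribosomal protein genes had positive differences for 79 of 81 (median 0.22 against 0.03 over all genes), but 2 were called, a share of 2.47% against 4.74% of all genes. Of the 81, 39 had an unadjusted p under 0.05, against 27.6% of all genes. Voom called 21 of the 81 upward, against 1399 of all 21480 genes. The list's median gene length was 1211 bases. The list's median was 0.14 after centring by gene length, 0.09 under TPM scaling and 0.06 under quantile normalization. For the cytosolic ribosomal list the number of upward calls was 0 without knockout hypoxia 1, knockout normoxia 3, wild-type hypoxia 2 or wild-type normoxia 3, 1 without knockout normoxia 1, knockout normoxia 2 or wild-type normoxia 1, 4 without knockout hypoxia 3, and 45 without wild-type hypoxia 1. The cytosolic ribosomal list had 1 upward and 0 downward calls under TPM scaling and 1 and 0 under quantile normalization. Of 19 cytosolic aminoacyl-tRNA synthetases 2 were called, both downward (10.5% against 4.5% of all genes), nars1 with -0.37 ± 0.09 (adjusted p = 0.0289) and aars1 with -0.26 ± 0.07 (adjusted p = 0.0358). Nars1 lost its call with no variance trend and without knockout hypoxia 1, knockout normoxia 2, knockout hypoxia 2, wild-type hypoxia 2, wild-type normoxia 3, knockout normoxia 3 or wild-type normoxia 1 (adjusted p from 0.0526 to 0.0736). Aars1's call was lost with no variance trend, after centring by gene length and without knockout hypoxia 3, knockout hypoxia 2, knockout normoxia 2, knockout hypoxia 1, knockout normoxia 3, knockout normoxia 1, wild-type normoxia 3 or wild-type normoxia 1 (adjusted p from 0.0585 to 0.0986). The tRNA synthetase list had 1 upward call without wild-type hypoxia 3. For the tRNA synthetase list the number of downward calls was 0 without knockout hypoxia 1, knockout hypoxia 2, knockout normoxia 2, knockout normoxia 3, wild-type normoxia 1 or wild-type normoxia 3, and 1 without knockout hypoxia 3, knockout normoxia 1 or wild-type hypoxia 2. The tRNA synthetase list had 0 upward and 6 downward calls under TPM scaling and 0 and 5 under quantile normalization.

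Of 90 tested nuclear genes of oxidative phosphorylation 28 were more upward in the knockout (31.1% against 4.74% of all genes) and 0 more downward. A positive difference was found for 88, and the median was 0.30 against 0.03 over all genes. The median response was -0.25 in wild type and 0.06 in the knockout. Sdhc, a membrane subunit of complex II, measured 74.3, 65.8 and 69.3 FPKM in normoxic wild type, 65.8, 64.6 and 61.6 in normoxic knockouts, 54, 53.5 and 55 in hypoxic wild type and 72.4, 71.7 and 66.5 in hypoxic knockouts. Wild-type hypoxia was below the other 3 groups in every library, and the difference was 0.49 ± 0.08 (adjusted p = 0.00798). Ndufs6, a subunit of complex I, measured 45.2, 44.8 and 46.6 FPKM in normoxic wild type, 48.5, 47.8 and 45.3 in normoxic knockouts, 37.4, 34.2 and 35.1 in hypoxic wild type and 59.9, 52 and 49.8 in hypoxic knockouts, with a difference of 0.53 ± 0.09 (adjusted p = 0.0106). The oxidative phosphorylation list had 5 upward calls without knockout normoxia 3 or wild-type normoxia 1, 6 without knockout hypoxia 1 or wild-type normoxia 3, 10 without wild-type hypoxia 2, 11 without knockout normoxia 2, 15 without knockout hypoxia 2 or knockout normoxia 1, 18 without wild-type hypoxia 3, and 61 without wild-type hypoxia 1. The oxidative phosphorylation list had 10 upward and 0 downward calls under TPM scaling and 6 and 0 under quantile normalization. These are short genes, with a median length of 914 bases, and when each library was centred within deciles of gene length 12 members were called and the median was 0.21.

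Other mitochondrial lists had fewer calls. Mitochondrial ribosomal proteins had 8 of 75 called, all upward (10.7% against 4.74% of all genes, median 0.25, and 2 called after centring by gene length). For the mitochondrial ribosomal list the number of upward calls was 1 without wild-type normoxia 1, 2 without knockout hypoxia 1 or knockout normoxia 3, 3 without knockout normoxia 2 or wild-type normoxia 3, 4 without knockout normoxia 1 or wild-type hypoxia 2, 5 without wild-type hypoxia 3, and 17 without wild-type hypoxia 1. The mitochondrial ribosomal list had 2 upward and 0 downward calls under TPM scaling and 2 and 0 under quantile normalization. Mrpl47 measured 21, 22.7 and 22.4 FPKM in normoxic wild type, 20.02, 20.7 and 19.9 in normoxic knockouts, 14.1, 12.4 and 11.3 in hypoxic wild type and 18.3, 18.5 and 16 in hypoxic knockouts. The response was -0.77 in wild type, a called fall, and -0.19 in the knockout, not called. The difference was 0.57 ± 0.11 (adjusted p = 0.0147). Fatty acid oxidation had 5 of 21 called upward (23.8% against 4.74% of all genes, median 0.18), led by cpt1ab, the carnitine palmitoyltransferase that admits fatty acids to mitochondria. Cpt1ab measured 27.1, 25.1 and 26.4 FPKM in normoxic wild type, 32.4, 35.2 and 34.2 in normoxic knockouts, 27.1, 26.1 and 29.6 in hypoxic wild type and 56.4, 55.5 and 54.2 in hypoxic knockouts, a difference of 0.62 ± 0.08 (adjusted p = 0.00314). The knockout hypoxia libraries were above all others. The fatty acid oxidation list had 2 upward calls without knockout hypoxia 1, knockout normoxia 1, knockout normoxia 3, wild-type hypoxia 2, wild-type normoxia 1 or wild-type normoxia 3. The fatty acid oxidation list had 1 upward and 0 downward calls under TPM scaling and 1 and 0 under quantile normalization. Of 19 tricarboxylic acid cycle enzymes 2 were called upward (10.5% against 4.74% of all genes), idh3a with 0.30 ± 0.06 (adjusted p = 0.0181) and sucla2 with 0.22 ± 0.06 (adjusted p = 0.0374). Idh3a lost its call under TPM scaling, under quantile normalization and without wild-type normoxia 1 (adjusted p from 0.0545 to 0.131). Sucla2's call was lost after centring by gene length, with no variance trend, under TPM scaling, under quantile normalization and without wild-type normoxia 2, knockout hypoxia 2, knockout normoxia 1, knockout normoxia 3, wild-type hypoxia 2, wild-type normoxia 3, knockout hypoxia 1, knockout normoxia 2 or wild-type normoxia 1 (adjusted p from 0.0525 to 0.684). For the tricarboxylic acid cycle list the number of upward calls was 0 without wild-type normoxia 1, 1 without any single library other than knockout hypoxia 3, knockout normoxia 2, wild-type hypoxia 1, wild-type hypoxia 3 or wild-type normoxia 1, and 5 without wild-type hypoxia 1. The tricarboxylic acid cycle list had 0 upward and 0 downward calls under TPM scaling and 0 and 0 under quantile normalization. Of the 13 mitochondrial genome genes 0 were called by limma, with 3 at an unadjusted p under 0.05 against 27.6% of all genes. Voom on the recovered reads called 3 of the 13, all upward, against 14% of all genes in either direction. The median of the 13 mitochondrial genome genes was 0.06. It was -0.06 under TPM scaling and -0.19 under quantile normalization, where 1 was called upward and 3 downward. Reads were also summed over all genes of the mitochondrial chromosome, not the 13 alone. Their share was 3.48 to 3.67% in normoxic wild type, 3.97 to 4.18% in normoxic knockouts, 3.004 to 3.08% in hypoxic wild type and 3.65 to 3.75% in hypoxic knockouts.

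Autophagy and mitophagy genes had 14 upward calls and 0 downward among 45 tested (31.1% against 4.74% of all genes), and the median was 0.24 both before and after centring by gene length. Wipi2, a phosphoinositide-binding protein of early autophagosomes, measured 30.1, 30.4 and 31.1 FPKM in normoxic wild type, 30.5, 29.6 and 29.7 in normoxic knockouts, 44.7, 38.7 and 42 in hypoxic wild type and 64.7, 62.9 and 63.3 in hypoxic knockouts. It rose in both genotypes, and the knockout hypoxia libraries exceeded all others, with a difference of 0.63 ± 0.07 (adjusted p = 0.00178). Gabarapb, an Atg8-family protein of the autophagosome membrane, measured 86.7, 81.1 and 86.7 FPKM in normoxic wild type, 80.3, 75.6 and 77.8 in normoxic knockouts, 97.5, 89.8 and 94.1 in hypoxic wild type and 136, 127 and 122 in hypoxic knockouts, with a difference of 0.57 ± 0.08 (adjusted p = 0.00408). The cargo receptor sqstm1 (0.55), the Atg8 proteins map1lc3a (0.63), map1lc3b (0.49), gabarapa (0.44) and gabarapl2 (0.40), and the lysosomal protease ctsd (0.35) were further called members. The autophagy and mitophagy list had 6 upward calls without wild-type normoxia 1, 8 without knockout hypoxia 1, knockout normoxia 2, knockout normoxia 3 or wild-type normoxia 3, and 9 without knockout normoxia 1 or wild-type hypoxia 2. The autophagy and mitophagy list had 9 upward and 0 downward calls under TPM scaling and 9 and 0 under quantile normalization.

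Of 21 subunits of the vacuolar proton pump 5 were called, all upward (23.8% against 4.74% of all genes, median 0.20). For the vacuolar proton pump list the number of upward calls was 3 without knockout hypoxia 1, knockout normoxia 1, knockout normoxia 3, wild-type hypoxia 2, wild-type normoxia 1 or wild-type normoxia 3, and 8 without wild-type hypoxia 3. The vacuolar proton pump list had 2 upward and 0 downward calls under TPM scaling and 0 and 0 under quantile normalization. Atp6v0d1 measured 61.3, 59 and 61.1 FPKM in normoxic wild type, 61, 61.6 and 61.4 in normoxic knockouts, 56.4, 52.6 and 59.9 in hypoxic wild type and 77.2, 77 and 73.4 in hypoxic knockouts, with the knockout hypoxia libraries above all others and a difference of 0.40 ± 0.07 (adjusted p = 0.0119). Proteasome subunits had 8 of 42 called upward (19.1% against 4.74% of all genes, median 0.24). Their median response was -0.63 in wild type and -0.42 in the knockout. The proteasome list had 0 upward calls without knockout hypoxia 1, knockout normoxia 3 or wild-type normoxia 3, 2 without wild-type normoxia 1, 3 without wild-type hypoxia 2, 4 without knockout hypoxia 2, knockout normoxia 1 or knockout normoxia 2, and 18 without wild-type hypoxia 1. The proteasome list had 2 upward and 1 downward call under TPM scaling and 2 and 1 under quantile normalization. After centring by gene length 4 proteasome genes were called, all upward, and the median was 0.18.

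Several leading upward genes belonged to none of these pathways. CARTPT (ENSDARG00000035852, GRCz11 chromosome 7, 52962632 to 52963493), a feeding-related neuropeptide precursor, measured 3.25, 3.66 and 2.55 FPKM in normoxic wild type, 5.42, 4.79 and 5.45 in normoxic knockouts, 1.62, 2.65 and 2.68 in hypoxic wild type and 22.1, 23.4 and 18.8 in hypoxic knockouts. The knockout hypoxia libraries were far above the other 9, and the difference was 2.18 ± 0.19 (adjusted p = 0.000452). SAT1 (ENSDARG00000095908), named for an enzyme that acetylates spermidine and spermine, measured 28.5, 30.5 and 30.2 FPKM in normoxic wild type, 34.2, 35.2 and 32.7 in normoxic knockouts, 29.3, 25.3 and 24.6 in hypoxic wild type and 74.9, 66.2 and 59.9 in hypoxic knockouts. Its knockout hypoxia libraries were above the other 9 by a wide gap, and the difference was 1.12 ± 0.11 (adjusted p = 0.000748). Ak3, a mitochondrial adenylate kinase, measured 21.8, 20.7 and 22.4 FPKM in normoxic wild type, 22.8, 22.8 and 22.4 in normoxic knockouts, 23.5, 21.6 and 26 in hypoxic wild type and 45.8, 48.9 and 46.1 in hypoxic knockouts, with a difference of 0.89 ± 0.09 (adjusted p = 0.000748). G0s2, an inhibitor of triglyceride breakdown in mammals, measured 2.33, 2.57 and 2.37 FPKM in normoxic wild type, 4.17, 3.26 and 3.4 in normoxic knockouts, 3.65, 2.77 and 3.89 in hypoxic wild type and 18.6, 14.9 and 12.2 in hypoxic knockouts, with a difference of 1.44 ± 0.19 (adjusted p = 0.00387).

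Kcnk3b, a leak potassium channel, measured 0.292, 0.341 and 0.0372 FPKM in normoxic wild type, 0.614, 0.605 and 0.509 in normoxic knockouts, 0.359, 0.541 and 0.507 in hypoxic wild type and 4.55, 5.7 and 3.39 in hypoxic knockouts. It passed the filter through the knockout hypoxia group alone, so its difference of 1.52 ± 0.21 (adjusted p = 0.0047) is a description. Kcnk3b's call was lost at a pseudocount of 0.1 and with voom (adjusted p from 0.0652 to 0.163). Cyp2k6, a cytochrome P450, likewise measured 0.0548, 0.0853 and 0 FPKM in normoxic wild type, 0.0542, 0.0800 and 0.136 in normoxic knockouts, 0.12, 0.203 and 0.38 in hypoxic wild type and 2.09, 1.74 and 1.32 in hypoxic knockouts and passed through that group alone, with 1.08 ± 0.20 (adjusted p = 0.0131). Cyp2k6 lost its call at a pseudocount of 0.1 and with voom (adjusted p from 0.105 to 0.22). In all, 90 genes passed the filter through 1 group alone and 18 of them were called, against 9.25% of all genes. These genes were admitted by their high group, so the count is a description. Pde6ha, the inhibitory subunit of cone phosphodiesterase, measured 10.5, 6.59 and 4.26 FPKM in normoxic wild type, 4.37, 5.16 and 6.16 in normoxic knockouts, 2.19, 3.83 and 5.67 in hypoxic wild type and 9.92, 11 and 13 in hypoxic knockouts. Wild-type normoxia ran over a wide range that overlapped knockout hypoxia, and the difference was 1.71 ± 0.39 (adjusted p = 0.0228). Pde6ha's call was lost without knockout normoxia 1 or wild-type normoxia 1 (adjusted p from 0.0505 to 0.0549). A pair of upward and 1 downward 5S_rRNA gene and the microRNA gene MIRLET7G also met the naming rule, but they had between 0 and 6 recovered reads in a library.

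Nfe2l2a, the master regulator of oxidant defence genes, measured 31.1, 28.1 and 30.1 FPKM in normoxic wild type, 30.02, 31.3 and 31.3 in normoxic knockouts, 53, 47.6 and 55.4 in hypoxic wild type and 77.5, 78.8 and 67.8 in hypoxic knockouts. It rose in both genotypes and higher in the knockout, with 0.46 ± 0.10 (adjusted p = 0.0199). Nfe2l2a's call was lost under quantile normalization and without knockout hypoxia 1 or wild-type normoxia 1 (adjusted p from 0.0522 to 0.0562). Of 32 genes of the glutathione, thioredoxin and Nrf2 list 3 were called, all upward (9.38% against 4.74% of all genes), including pgd. For the glutathione and Nrf2 list the number of upward calls was 1 without wild-type normoxia 1, 5 without wild-type hypoxia 1, 6 without wild-type hypoxia 3, and 7 without knockout hypoxia 3, and the number of downward calls was 1 without knockout hypoxia 2. The glutathione and Nrf2 list had 2 upward and 0 downward calls under TPM scaling and 1 and 0 under quantile normalization. Among macrophage and neutrophil markers 4 of 21 were called upward (19.1% against 4.74% of all genes), with a median of 0.33. Ptgs2a, the inducible prostaglandin synthase, measured 8.8, 7.2 and 8.62 FPKM in normoxic wild type, 6.94, 6.16 and 6.15 in normoxic knockouts, 11, 9.78 and 10.9 in hypoxic wild type and 13.3, 15.3 and 13.3 in hypoxic knockouts, with a difference of 0.68 ± 0.12 (adjusted p = 0.0123). Mmp9, a matrix protease of neutrophils, differed by 0.88 ± 0.20 (adjusted p = 0.0223), and the macrophage pore-forming genes mpeg1.2 and mpeg1.1 by 0.55 and 0.39. Mmp9 lost its call without wild-type normoxia 1, wild-type normoxia 3, knockout normoxia 3 or knockout hypoxia 1 (adjusted p from 0.0504 to 0.058). For the macrophage and neutrophil list the number of upward calls was 1 without knockout hypoxia 1, knockout normoxia 3, wild-type normoxia 1 or wild-type normoxia 3, and 2 without knockout hypoxia 2, knockout normoxia 2 or wild-type hypoxia 2. The macrophage and neutrophil list had 2 upward and 0 downward calls under TPM scaling and 5 and 0 under quantile normalization. Glucocorticoid and clock genes had 6 of 42 called, all upward (14.3% against 4.74% of all genes), with tat at the head and tefa, a clock-output factor, at 0.58 ± 0.10 (adjusted p = 0.0108). The glucocorticoid and clock list had 3 upward calls without knockout hypoxia 1 or wild-type normoxia 1, and 10 without wild-type hypoxia 3, and the number of downward calls was 2 without wild-type normoxia 2. The glucocorticoid and clock list had 4 upward and 3 downward calls under TPM scaling and 5 and 1 under quantile normalization.

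Among genes more downward in the knockout, gart (ENSDARG00000101089, GRCz11 chromosome 1, 960209 to 999556), an enzyme of purine synthesis, had the smallest p. It measured 13.8, 14.9 and 15.2 FPKM in normoxic wild type, 14.2, 15.3 and 15 in normoxic knockouts, 12.6, 13 and 11.5 in hypoxic wild type and 6.16, 6.26 and 6.54 in hypoxic knockouts. The fall was -0.23 in wild type and -1.11 in the knockout, the 3 knockout hypoxia libraries were below the other 9 by a wide gap, and the difference was -0.89 ± 0.09 (adjusted p = 0.000748). Of 56 replication genes 0 were upward and 2 downward (3.57% against 4.5% of all genes, median -0.06). Of 43 mitosis genes 0 were called by limma, with 5 at an unadjusted p under 0.05 against 27.6% of all genes. Voom called 1 of the 43, downward, against 14% of all genes called by voom in either direction. Median responses of the replication genes were -0.93 in wild type and -1.003 in the knockout. Pcna, the replication clamp, measured 195, 187 and 214 FPKM in normoxic wild type, 156, 177 and 160 in normoxic knockouts, 72.6, 68.2 and 71.2 in hypoxic wild type and 56.9, 54.1 and 58.5 in hypoxic knockouts. Both genotypes fell by nearly the same amount, and the difference was -0.04 ± 0.09 (adjusted p = 0.788). Tk1, thymidine kinase, differed by -0.45 ± 0.11 (adjusted p = 0.0279), and mcm7, a helicase subunit, by -0.35 ± 0.10 (adjusted p = 0.0452). Tk1's call was lost without wild-type normoxia 2, knockout normoxia 2, knockout hypoxia 2, knockout normoxia 1, knockout hypoxia 1, wild-type hypoxia 2, knockout normoxia 3 or wild-type normoxia 3 (adjusted p from 0.05 to 0.0701). Mcm7's call was lost with the block, with no filter, with no variance trend and without wild-type normoxia 2, wild-type hypoxia 1, knockout hypoxia 3, knockout hypoxia 1, knockout hypoxia 2, wild-type hypoxia 2, knockout normoxia 2, wild-type normoxia 1, wild-type normoxia 3 or knockout normoxia 3 (adjusted p from 0.05 to 0.103). The replication list had 0 downward calls without any single library other than knockout hypoxia 3, knockout normoxia 1, wild-type hypoxia 1, wild-type hypoxia 3 or wild-type normoxia 1, and 1 without knockout hypoxia 3, knockout normoxia 1, wild-type hypoxia 1 or wild-type normoxia 1. For the mitosis list the number of downward calls was 1 without wild-type hypoxia 3. The mitosis list had 0 upward and 2 downward calls under TPM scaling and 0 and 1 under quantile normalization. Of all 21480 genes, 1698 and 1066 were called downward under these scalings, in that order.

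Of 74 tested genes of cartilage, bone and collagen 19 were more downward in the knockout and 0 more upward (25.7% against 4.5% of all genes downward), with a median of -0.17. Of the 19, 11 were called in every fit that left out a library. Col2a1b (ENSDARG00000011407, GRCz11 chromosome 11, 32007 to 55224), a cartilage collagen, measured 121, 132 and 125 FPKM in normoxic wild type, 128, 129 and 132 in normoxic knockouts, 130, 146 and 121 in hypoxic wild type and 80.3, 80.9 and 86.4 in hypoxic knockouts. The 9 libraries outside knockout hypoxia overlapped, and the knockout hypoxia libraries were all below them. The response was 0.07 in wild type and -0.64 in the knockout, a difference of -0.71 ± 0.09 (adjusted p = 0.00302). Col11a1a, a fibril collagen of cartilage, measured 143, 155 and 148 FPKM in normoxic wild type, 146, 143 and 139 in normoxic knockouts, 136, 153 and 132 in hypoxic wild type and 75.5, 84.2 and 91.5 in hypoxic knockouts. Its knockout hypoxia libraries were also below the other 9, and the difference was -0.68 ± 0.10 (adjusted p = 0.00566). In col2a1b and col11a1a wild-type hypoxia 2 was the highest of its group. Col2a1a (-0.78), col11a2 (-0.83), col9a2 (-0.62) and col9a3 (-0.53) were also called. The collagen and cartilage list had 1 upward call without wild-type hypoxia 3, and 2 without wild-type hypoxia 1, and the number of downward calls was 11 without wild-type normoxia 1. The collagen and cartilage list had 0 upward and 30 downward calls under TPM scaling and 0 and 25 under quantile normalization.

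Col9a1b measured 18.5, 20.9 and 22.5 FPKM in normoxic wild type, 19.8, 19.9 and 21 in normoxic knockouts, 23.8, 46 and 18.6 in hypoxic wild type and 9.94, 10.9 and 10.7 in hypoxic knockouts. Wild-type hypoxia 2 was far above all other libraries, the knockout hypoxia libraries were the lowest, and the difference was -1.28 ± 0.32 (adjusted p = 0.0289). Col9a1b lost its call with no filter and without knockout hypoxia 2, knockout normoxia 2, knockout normoxia 1, wild-type normoxia 3, knockout normoxia 3, knockout hypoxia 1 or wild-type normoxia 1 (adjusted p from 0.0512 to 0.0719). All but 1 of the 19 downward members of the list were collagens, and the other was epyc, a small proteoglycan of cartilage (-0.37). The median gene length of the list was 5110 bases. After centring by gene length 13 members were called, all downward, and the median was -0.09.

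Of 46 tested neuron and synapse genes 14 were more downward and 0 more upward (30.4% against 4.5% of all genes downward), with a median of -0.15 that was -0.17 after centring by gene length, where 10 were called downward and 1 upward. The list also held genes of glia and myelin, among them gfap, mbpa and slc1a2b. Elavl3 (ENSDARG00000014420, GRCz11 chromosome 3, 46800190 to 46818001), an RNA-binding protein of neurons, measured 44, 46.9 and 44.7 FPKM in normoxic wild type, 52.5, 46.6 and 56.4 in normoxic knockouts, 59.5, 74.7 and 55.5 in hypoxic wild type and 40.5, 40.2 and 45.6 in hypoxic knockouts. It rose in wild type and fell in the knockout, and the hypoxia libraries of the genotypes did not overlap. Wild-type hypoxia 2 was the highest library of its group. The difference was -0.76 ± 0.14 (adjusted p = 0.0143). The glutamate transporter slc1a2b measured 51.7, 65.4 and 48.9 FPKM in normoxic wild type, 64.9, 72.2 and 79 in normoxic knockouts, 48.2, 89.97 and 52.4 in hypoxic wild type and 33.5, 34.2 and 39.4 in hypoxic knockouts. Wild-type hypoxia 2 was far above the other 2 libraries of its group, which lay near wild-type normoxia, and the difference was -1.14 ± 0.26 (adjusted p = 0.0238). Slc1a2b's call was lost with no filter and without knockout hypoxia 1, wild-type normoxia 3, knockout normoxia 3 or wild-type normoxia 1 (adjusted p from 0.0511 to 0.062). The synaptic vesicle genes syn1 (-0.90) and syn2b (-0.97), the growth-cone gene stmn2b (-0.95) and the vesicular GABA transporter slc32a1 (-0.73) were further members called.

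The same library was high in other downward genes. Septin5b, a filament protein of nerve endings, measured 5.8, 6.93 and 5.03 FPKM in normoxic wild type, 7.75, 9.79 and 10.16 in normoxic knockouts, 5.28, 9.98 and 5.68 in hypoxic wild type and 4.07, 3.13 and 3.25 in hypoxic knockouts, with a difference of -1.36 ± 0.26 (adjusted p = 0.0163). Sez6l2 measured 6.56, 8.7 and 5.69 FPKM in normoxic wild type, 10.17, 11.4 and 11 in normoxic knockouts, 4.89, 9.97 and 5.77 in hypoxic wild type and 4.31, 3.74 and 4.23 in hypoxic knockouts, with a difference of -1.16 ± 0.27 (adjusted p = 0.0235). Robo2, an axon guidance receptor, measured 9.57, 11.1 and 8.94 FPKM in normoxic wild type, 11.6, 12.3 and 13.2 in normoxic knockouts, 7.83, 15.2 and 8.92 in hypoxic wild type and 5.07, 5.5 and 6.13 in hypoxic knockouts, with -1.08 ± 0.24 (adjusted p = 0.0225). In these 3 genes wild-type hypoxia 2 was the highest of its group, and the knockout was above wild type in normoxia and below it in hypoxia. Sez6l2's call was lost without knockout hypoxia 1, knockout normoxia 3, wild-type normoxia 3 or wild-type normoxia 1 (adjusted p from 0.0528 to 0.0603). Robo2's call was lost without wild-type normoxia 3, knockout normoxia 3, knockout hypoxia 1 or wild-type normoxia 1 (adjusted p from 0.0562 to 0.0585). The neuron and synapse list had 3 upward calls without wild-type hypoxia 3. For the neuron and synapse list the number of downward calls was 1 without knockout hypoxia 1, knockout normoxia 3, wild-type normoxia 1 or wild-type normoxia 3, 6 without knockout hypoxia 2, 7 without knockout normoxia 2, and 9 without knockout normoxia 1 or wild-type hypoxia 2. The part of wild-type hypoxia 2 in these differences was not tested beyond these fits.

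Further leading downward genes lay outside these lists. Gucy1a2, a subunit of the nitric oxide receptor guanylate cyclase, measured 0.859, 0.797 and 1.13 FPKM in normoxic wild type, 2.25, 2.6 and 2.6 in normoxic knockouts, 1.07, 1.82 and 1.21 in hypoxic wild type and 1.04, 1.38 and 0.824 in hypoxic knockouts. The knockout was above wild type in normoxia, the genotypes overlapped in hypoxia, and the difference was -1.04 ± 0.19 (adjusted p = 0.0144). Sipa1, a GTPase-activating protein for Rap, measured 1.88, 2.01 and 1.4 FPKM in normoxic wild type, 2.19, 2.83 and 3.19 in normoxic knockouts, 2.14, 2.67 and 1.84 in hypoxic wild type and 0.806, 1.3 and 0.966 in hypoxic knockouts, with the knockout hypoxia libraries below all others and a difference of -1.1 ± 0.20 (adjusted p = 0.0128). Bsnb, a scaffold of the presynaptic active zone, measured 1.97, 2.5 and 1.93 FPKM in normoxic wild type, 3.21, 3.67 and 3.96 in normoxic knockouts, 1.61, 3.46 and 2.16 in hypoxic wild type and 1.27, 1.37 and 1.48 in hypoxic knockouts, with -1.05 ± 0.22 (adjusted p = 0.0199). Pmelb, a pigment cell matrix protein, measured 4.48, 3.85 and 4.62 FPKM in normoxic wild type, 3.96, 4.15 and 6.09 in normoxic knockouts, 4.19, 6.67 and 2.46 in hypoxic wild type and 1.3, 1.31 and 1.81 in hypoxic knockouts. Wild-type hypoxia covered a wide range, and the difference was -1.16 ± 0.32 (adjusted p = 0.0419). In gucy1a2, sipa1, bsnb and pmelb, as in septin5b, wild-type hypoxia 2 was the highest of its group. The knockout libraries of bsnb were above wild type in normoxia and below wild type in hypoxia. Bsnb lost its call without wild-type normoxia 3, knockout hypoxia 1, knockout normoxia 3 or wild-type normoxia 1 (adjusted p from 0.0506 to 0.055). Pmelb's call was lost with no variance trend, with the block, with no filter and without wild-type hypoxia 1, knockout normoxia 1, knockout normoxia 2, wild-type hypoxia 2, wild-type normoxia 2, wild-type normoxia 3, knockout hypoxia 2, wild-type normoxia 1, knockout hypoxia 1 or knockout normoxia 3 (adjusted p from 0.0516 to 0.0984).

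Several red cell genes had a larger response to hypoxia in wild type. Slc4a1a (ENSDARG00000012881, GRCz11 chromosome 3, 20065861 to 20092124), the band 3 anion exchanger of the red cell membrane, measured 10.9, 11 and 11.7 FPKM in normoxic wild type, 12.7, 13.5 and 14.5 in normoxic knockouts, 50.6, 44.9 and 42.4 in hypoxic wild type and 29.5, 31.4 and 33.2 in hypoxic knockouts. The knockout was above wild type in normoxia and below it in hypoxia, without overlap in either. The rise was 1.94 in wild type and 1.15 in the knockout, a difference of -0.79 ± 0.10 (adjusted p = 0.00348). Epb41b, protein 4.1 of the membrane skeleton, measured 1.95, 1.92 and 2.17 FPKM in normoxic wild type, 1.98, 1.79 and 2.24 in normoxic knockouts, 5.06, 4.53 and 3.82 in hypoxic wild type and 2.28, 2.06 and 2.53 in hypoxic knockouts. The wild-type rise set this gene apart, since the knockout hypoxia libraries lay close to both normoxia groups, and the difference was -0.72 ± 0.14 (adjusted p = 0.0163). Ank1b, an ankyrin, differed by -0.66, while cahz, a red cell carbonic anhydrase, and nt5c3a, a nucleotidase, were more upward by 0.46 and 0.34. In all 2 of 32 erythroid genes were called upward (6.25% against 4.74% of all genes) and 3 downward (9.38% against 4.5% of all genes), with a median of 0.04 against 0.03 over all genes. The erythroid list had 0 upward calls without knockout hypoxia 1, knockout hypoxia 2, knockout normoxia 3, wild-type normoxia 1 or wild-type normoxia 3, and 1 without knockout normoxia 1, knockout normoxia 2 or wild-type hypoxia 2. The erythroid list had 0 upward and 6 downward calls under TPM scaling and 0 and 4 under quantile normalization, with a median of -0.07 under the former.

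Of 11 tested globins 0 were called upward and 2 downward (18.2% against 4.5% of all genes), with a positive median of 0.13. For the globin list the number of upward calls was 1 without wild-type hypoxia 1, and the number of downward calls was 0 without wild-type normoxia 1. Hbae5, an embryonic alpha globin, measured 0.461, 0.814 and 0.517 FPKM in normoxic wild type, 1.14, 0.539 and 0.413 in normoxic knockouts, 21.9, 23.1 and 15.5 in hypoxic wild type and 9.37, 7.7 and 9.5 in hypoxic knockouts. It was low in every normoxia library and rose in both genotypes, by 3.72 in wild type and 2.56 in the knockout, and the hypoxia libraries did not overlap. The difference was -1.16 ± 0.24 (adjusted p = 0.0181). Hbae5 lost its call at a pseudocount of 0.1, with voom and without wild-type normoxia 1 (adjusted p from 0.0509 to 0.129). Hbbe2, an embryonic beta globin, measured 147, 149 and 154 FPKM in normoxic wild type, 84.9, 79.1 and 84.1 in normoxic knockouts, 506, 495 and 456 in hypoxic wild type and 218, 203 and 208 in hypoxic knockouts. The knockout was lower in both conditions, and the difference between the responses was -0.35 ± 0.07 (adjusted p = 0.0179). Hbbe2 lost its call without wild-type normoxia 1 (adjusted p = 0.0517). Globin genes are similar to one another in sequence, so how reads were shared among them is uncertain. Gata1a, the transcription factor that drives red cell formation, measured 0.833, 1.27 and 1.13 FPKM in normoxic wild type, 0.714, 1.38 and 1.16 in normoxic knockouts, 0.758, 0.97 and 0.445 in hypoxic wild type and 1.36, 0.915 and 1.15 in hypoxic knockouts, from 15 to 51 reads a library, with a difference of 0.32 ± 0.22 (adjusted p = 0.372), not called.

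Calls among lipid genes went both ways. Apoba (ENSDARG00000042780, GRCz11 chromosome 17, 30704068 to 30727966), the apolipoprotein of large lipoproteins, measured 47.2, 37 and 46.3 FPKM in normoxic wild type, 29.2, 28.9 and 30.9 in normoxic knockouts, 24.1, 19.3 and 19 in hypoxic wild type and 6.9, 8.3 and 7.45 in hypoxic knockouts. It fell in both genotypes, and the log2 difference was -0.81 ± 0.15 (adjusted p = 0.013), while on the linear scale the difference was 0.632 FPKM, of the opposite sign. Srebf2, the transcription factor of sterol synthesis, measured 14.4, 17.8 and 15.2 FPKM in normoxic wild type, 16, 16.9 and 17.6 in normoxic knockouts, 10.7, 12.6 and 11.4 in hypoxic wild type and 7.34, 8.34 and 8.1 in hypoxic knockouts, with a steeper fall in the knockout and a difference of -0.58 ± 0.12 (adjusted p = 0.0175). Msmo1, a sterol synthesis enzyme, measured 9.46, 10.4 and 8.87 FPKM in normoxic wild type, 5.08, 4.5 and 3.95 in normoxic knockouts, 3.94, 4.05 and 4.01 in hypoxic wild type and 4.02, 3.64 and 3.34 in hypoxic knockouts. Wild-type normoxia was above the other 3 groups, which lay close together, and the difference was 0.84 ± 0.12 (adjusted p = 0.00557). Of 31 sterol and fatty acid synthesis genes 4 were called upward (12.9% against 4.74% of all genes) and 1 downward (3.23% against 4.5% of all genes). For the sterol and fatty acid synthesis list the number of upward calls was 1 without knockout hypoxia 1, wild-type normoxia 1 or wild-type normoxia 3, and 2 without knockout normoxia 2 or knockout normoxia 3, and the number of downward calls was 2 without wild-type hypoxia 1. The sterol and fatty acid synthesis list had 3 upward and 3 downward calls under TPM scaling and 4 and 1 under quantile normalization.

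The markers of other larval tissues show where else calls fell. Upward calls and no downward call were found in lens crystallins (8 of 42, median 0.27), skin genes (7 of 38, median 0.22), skeletal muscle genes (6 of 46, median 0.15) and intestine markers (3 of 22, median 0.26). These were 19.1%, 18.4%, 13% and 13.6% of the members, against 4.74% of all genes. For the lens crystallin list the number of upward calls was 2 without knockout hypoxia 1, knockout hypoxia 2, wild-type hypoxia 2, wild-type normoxia 1 or wild-type normoxia 3, 3 without knockout normoxia 2 or knockout normoxia 3, 5 without knockout normoxia 1, and 21 without wild-type hypoxia 1. The lens crystallin list had 3 upward and 1 downward call under TPM scaling and 2 and 1 under quantile normalization. After centring by gene length 4 crystallins were called, all upward, and the median was 0.19. Most of the called crystallins were crygm2d genes, near-identical copies, so how reads were shared among them is uncertain. The epidermis list had 3 upward calls without knockout normoxia 2, knockout normoxia 3, wild-type normoxia 1 or wild-type normoxia 3, 4 without knockout hypoxia 1, knockout hypoxia 2 or wild-type hypoxia 2, and 13 without wild-type hypoxia 1. The epidermis list had 4 upward and 0 downward calls under TPM scaling and 2 and 0 under quantile normalization. For the skeletal muscle list the number of upward calls was 2 without knockout hypoxia 1, knockout normoxia 1, knockout normoxia 3, wild-type hypoxia 2 or wild-type normoxia 1, and 3 without knockout hypoxia 2, knockout normoxia 2 or wild-type normoxia 3. The skeletal muscle list had 1 upward and 1 downward call under TPM scaling and 3 and 1 under quantile normalization. The intestine list had 0 upward calls without knockout normoxia 1, knockout normoxia 3 or wild-type normoxia 1, 1 without knockout hypoxia 1, knockout hypoxia 2, wild-type hypoxia 2 or wild-type normoxia 3, and 8 without wild-type hypoxia 3. The intestine list had 2 upward and 1 downward call under TPM scaling and 2 and 1 under quantile normalization. Crygm2d4, a lens crystallin of a family of near-identical copies, measured 370, 347 and 372 FPKM in normoxic wild type, 319, 312 and 296 in normoxic knockouts, 335, 292 and 304 in hypoxic wild type and 389, 358 and 372 in hypoxic knockouts, with a difference of 0.50 ± 0.08 (adjusted p = 0.00944). Liver and plasma protein genes were split, with 6 upward (13.6% against 4.74% of all genes) and 3 downward (6.82% against 4.5% of all genes) of 44, as were cytochrome P450 genes, with 8 upward (11.8% against 4.74% of all genes) and 3 downward (4.41% against 4.5% of all genes) of 68. For the liver and plasma protein list the number of upward calls was 0 without wild-type normoxia 1, 2 without knockout hypoxia 2, knockout normoxia 2, knockout normoxia 3, wild-type hypoxia 2 or wild-type normoxia 3, 3 without knockout hypoxia 1 or knockout normoxia 1, and 10 without wild-type normoxia 2, and the number of downward calls was 1 without knockout normoxia 2, knockout normoxia 3 or wild-type normoxia 1. The liver and plasma protein list had 4 upward and 6 downward calls under TPM scaling and 3 and 5 under quantile normalization, with a median of -0.06 under the former and -0.05 under the latter. For the cytochrome P450 list the number of upward calls was 2 without knockout hypoxia 1 or wild-type normoxia 1, 3 without knockout normoxia 3, and 4 without wild-type normoxia 3. The cytochrome P450 list had 0 downward calls without knockout hypoxia 1, knockout hypoxia 2, knockout normoxia 1, knockout normoxia 3 or wild-type normoxia 1, and 1 without knockout normoxia 2 or wild-type normoxia 3. The cytochrome P450 list had 6 upward and 3 downward calls under TPM scaling and 8 and 2 under quantile normalization, with a median of -0.03 under the former. Photoreceptor genes had 4 upward calls (8.89% against 4.74% of all genes) and 1 downward (2.22% against 4.5% of all genes) of 45. For the photoreceptor list the number of upward calls was 1 without wild-type normoxia 1, 2 without knockout normoxia 1, and 21 without wild-type hypoxia 3. The photoreceptor list had 0 downward calls without knockout hypoxia 1, knockout hypoxia 2, knockout normoxia 1, knockout normoxia 3, wild-type normoxia 1 or wild-type normoxia 3, 2 without wild-type hypoxia 2 or wild-type hypoxia 3, and 3 without wild-type hypoxia 1. The photoreceptor list had 2 upward and 2 downward calls under TPM scaling and 4 and 2 under quantile normalization. Ionocyte genes had 2 upward (9.52% against 4.74% of all genes) and 1 downward (4.76% against 4.5% of all genes) of 21. For the ionocyte list the number of upward calls was 0 without knockout hypoxia 1, knockout normoxia 3, wild-type normoxia 1 or wild-type normoxia 3, 1 without knockout hypoxia 2, knockout normoxia 1 or wild-type hypoxia 2, and 4 without knockout hypoxia 3 or wild-type hypoxia 1, and the number of downward calls was 0 without any single library other than knockout hypoxia 3 or wild-type hypoxia 1. The ionocyte list had 0 upward and 1 downward call under TPM scaling and 1 and 1 under quantile normalization. Of 18 exocrine pancreas markers 0 were called by limma (2 at an unadjusted p under 0.05, against 27.6% of all genes) and 0 by voom (against 14% of all genes). Of 31 endothelial genes 2 were called downward (6.45% against 4.5% of all genes), notch1b with -0.73 ± 0.18 (adjusted p = 0.0275) and ephb4a with -0.37 ± 0.10 (adjusted p = 0.0347). Notch1b lost its call after centring by gene length, with no filter and without knockout normoxia 2, knockout normoxia 3, wild-type normoxia 3, knockout hypoxia 1 or wild-type normoxia 1 (adjusted p from 0.0516 to 0.0673). Ephb4a's call was lost with no filter, with no variance trend, after centring by gene length and without knockout hypoxia 3, wild-type normoxia 3, knockout normoxia 1, wild-type hypoxia 2, knockout normoxia 2, knockout normoxia 3, knockout hypoxia 1 or wild-type normoxia 1 (adjusted p from 0.0502 to 0.0892). For the endothelial list the number of upward calls was 1 without wild-type hypoxia 1. The endothelial list had 0 downward calls without knockout hypoxia 1, knockout normoxia 2, knockout normoxia 3, wild-type normoxia 1 or wild-type normoxia 3, and 1 without knockout normoxia 1 or wild-type hypoxia 2. The endothelial list had 0 upward and 2 downward calls under TPM scaling and 0 and 2 under quantile normalization, with a median of -0.06 under the former. Of 34 genes of the endoplasmic reticulum 1 was called upward (2.94% against 4.74% of all genes), derl3 with 0.66 ± 0.17 (adjusted p = 0.0339), and 1 downward (2.94% against 4.5% of all genes), canx with -0.32 ± 0.07 (adjusted p = 0.0245). Derl3's call was lost with no variance trend, after centring by gene length, with no filter, under TPM scaling and without knockout normoxia 3, knockout normoxia 2, wild-type hypoxia 2, knockout hypoxia 2, knockout normoxia 1, knockout hypoxia 1 or wild-type normoxia 1 (adjusted p from 0.0503 to 0.0909). Canx's call was lost with no variance trend and without knockout hypoxia 2, wild-type hypoxia 2, wild-type normoxia 1, knockout hypoxia 1, wild-type normoxia 3 or knockout normoxia 3 (adjusted p from 0.0501 to 0.0645). For the endoplasmic reticulum list the number of upward calls was 0 without any single library other than knockout hypoxia 3, wild-type hypoxia 1, wild-type hypoxia 3, wild-type normoxia 2 or wild-type normoxia 3, and 4 without knockout hypoxia 3 or wild-type hypoxia 1. The endoplasmic reticulum list had 0 downward calls without knockout hypoxia 1, knockout hypoxia 2, knockout normoxia 3, wild-type hypoxia 2, wild-type normoxia 1 or wild-type normoxia 3, and 2 without knockout hypoxia 3. The endoplasmic reticulum list had 0 upward and 4 downward calls under TPM scaling and 1 and 4 under quantile normalization, with a median of -0.01 under the former and -0.03 under the latter. TPM scaling called 1698 of all 21480 genes downward, and quantile normalization 1066.

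**Figure D4:**
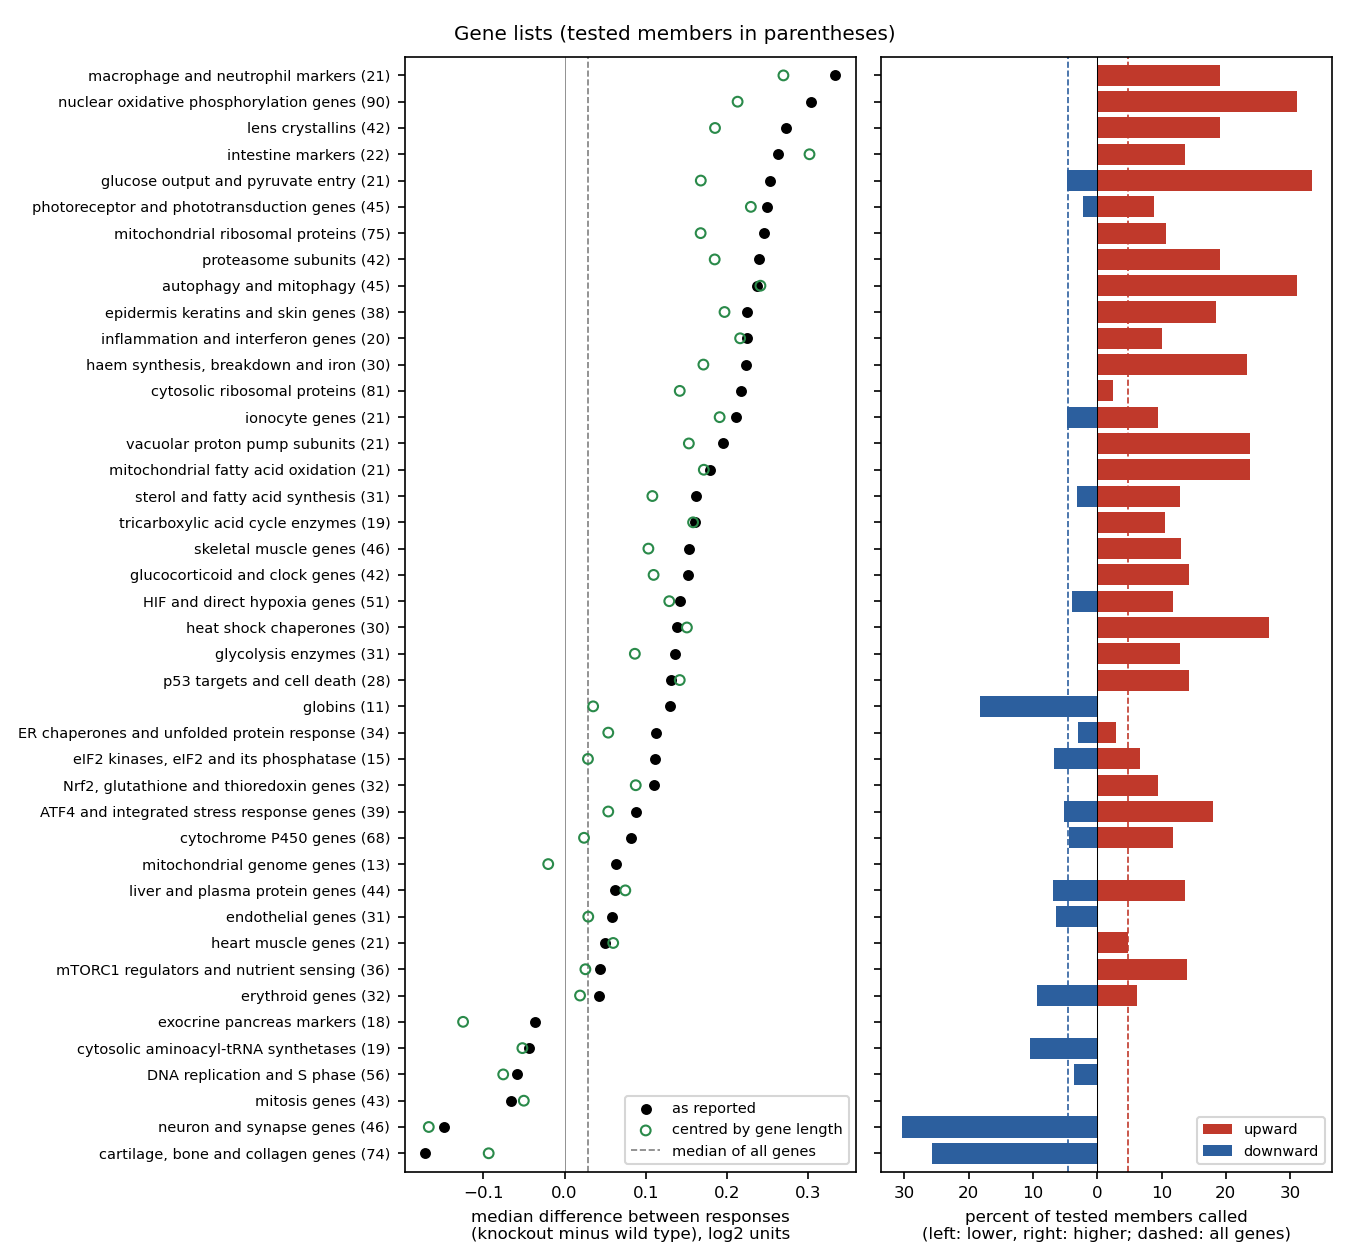
For each of 42 gene lists, left, the median difference between the responses (knockout minus wild type, log2 units) as reported (filled) and after centring by gene length (open), with the median of all genes dashed, and right, the percentage of tested members called upward (red) or downward (blue), with the percentages of all genes, 4.74 and 4.5, dashed. Autophagy and oxidative phosphorylation each reach 31.1% upward, and neuron and collagen lists 30.4% and 25.7% downward.

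Gene length moved with the differences. Among 18799 protein-coding genes, the median difference was 0.12 in the shortest decile (up to 999 bases) and -0.13 in the longest (6018 bases and more), and the share called downward was 1.7% and 15%. The share called upward was 6.85% in the shortest decile and 1.22% in the longest. The Spearman correlation between length and difference across genes was -0.26, a description since genes share the libraries. The median deviation of the longest minus the shortest decile was -0.04, -0.01 and -0.08 in normoxic wild type, 0.02, 0.01 and 0.03 in normoxic knockouts, 0.03, 0.17 and 0.09 in hypoxic wild type and -0.15, -0.07 and -0.04 in hypoxic knockouts. Wild-type hypoxia 2 and knockout hypoxia 1 were at the ends of this range. After centring each library within deciles of length, an alternative chosen after these values were seen, 1640 genes were called, 857 upward and 783 downward, and 1423 of them were among the 1986. The part of gene length in the differences of the long collagen and synapse genes and the short mitochondrial genes was not tested beyond this centring. The same holds for the crystallin, proteasome and cytosolic ribosomal lists.

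**Figure D5:**
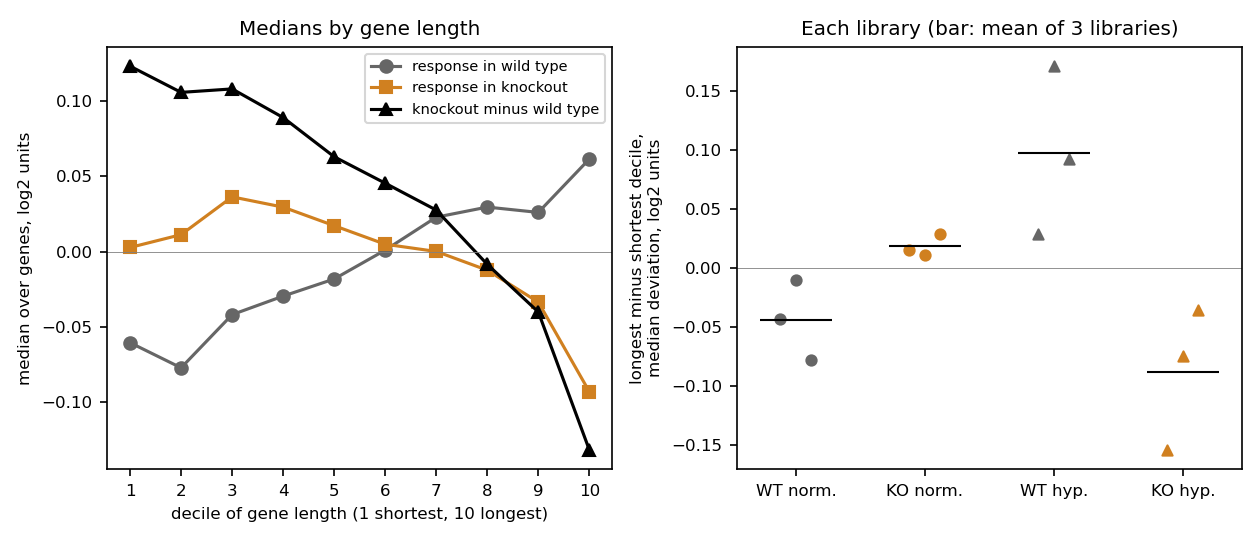
Left, median response in wild type, in the knockout and their difference (y axis, log2 units) by decile of gene length among protein-coding genes. Right, for each library, the median deviation of the longest decile minus that of the shortest, with bars for means of 3 libraries. The difference runs from 0.12 in the shortest decile to -0.13 in the longest, and wild-type hypoxia 2 (0.17) and knockout hypoxia 1 (-0.15) are farthest from 0.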

How the data were processed

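RNA from whole larvae was sequenced as poly(A)-selected libraries, 3 per group. Per the labels and the table itself, the deposited values are FPKM per gene and library. The submitters' processing notes name fastp, HISAT2 2.2.1, featureCounts 2.0.6 and GRCz11, and do not give their roles or order. Strand use in counting is not given in the sources used here.

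FPKM times gene length came in whole steps in 100% of values (within 0.05 of a step), which gave the recovered reads per library (15668848 to 16841145). These were used for depth and for voom. The library sizes given to voom were the divisors implied by the FPKM, so voom kept the deposited scaling. Depth limits genes of a few reads.

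The measure was the interaction contrast in a group-means model of log2(FPKM + 1) in limma 3.58.1 (R 4.3.3) with a variance trend, over genes with at least 1 FPKM in at least 3 libraries. Adjustment was by Benjamini-Hochberg over 21480 genes and the threshold was 0.05. Hypoxia and genotype contrasts came from the same fit. The script was checked on simulated data with known differences and the same spread setting for all genes. Those data held no trend with gene length and no outlying library, so the check does not bear on these features. Tables and figures used Python 3.11.15.

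Named genes were eif2ak4, the 12 largest differences in each direction and the 10 smallest p among called genes with a usable name and at least 2 FPKM in the highest group, up to 2 called members of each gene list with the smallest p, and a fixed set of stress, hypoxia and red cell genes. One gene that met this rule is not reported here. Other list members were named after their values were seen. Members and lists were chosen with earlier results of these data known. Capital symbols were given zebrafish names from the table's descriptions for 10797 of 12598 genes. Replicate numbers were checked for pairing: over 18 pairs of same-numbered libraries the correlation of deviations ran from -0.09 to 0.12, and 1 was over 0.1, so the numbers were not used as pairs. Alternatives were other pseudocounts, filters, scalings, weights, a replicate block, voom, a minimum size, each library left out and centring by gene length. Median ratio factors of the deposited values ran from 1.001 to 1.007, so median ratio scaling could change little.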

Additional observations from a re-analysis of the deposited data

Results flagged for a closer look

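Every call in this report comes from the interaction term in limma, which tests the difference between the responses of the 2 genotypes. Listing called genes again adds no further test. The genes leading by size or by p are listed here with the range of the difference when each library was left out. Groups of 3 libraries are too small for a test of single outlying libraries.

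Among the upward genes, the log2 difference was 2.76 for pmaip1 (2.65 to 2.92), 2.18 for CARTPT (2.02 to 2.29), 1.6 for hsp70.1 (1.52 to 1.69) and 1.57 for tat (1.42 to 1.71). It was 1.57 for hsp70l (1.44 to 1.75), 1.44 for hamp (1.29 to 1.64), 1.44 for g0s2 (1.29 to 1.58) and 1.71 for pde6ha (1.42 to 1.98). The genes with the smallest p added 1.26 for bzw1b (1.16 to 1.36), 1.25 for hmox1a (1.18 to 1.32), 1.12 for SAT1 (1.04 to 1.2), 1.02 for pgd (0.98 to 1.1), 0.97 for hsp90aa1.2 (0.90 to 1.01) and 0.89 for ak3 (0.83 to 0.96). All of these except pde6ha kept their call in every one of the 12 fits without a library. Kcnk3b, at 1.52 ± 0.21 (adjusted p = 0.0047), passed the filter on low values through the knockout hypoxia group alone, so its value is a description. Kcnk3b's call was lost at a pseudocount of 0.1 and with voom (adjusted p from 0.0652 to 0.163).

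Among the downward genes, the difference was -1.36 for septin5b (-1.51 to -1.1), -1.28 for col9a1b (-1.55 to -0.92), -1.16 for pmelb (-1.45 to -0.88), -1.16 for sez6l2 (-1.35 to -0.90) and -1.16 for hbae5 (-1.33 to -0.98). It was -1.14 for slc1a2b (-1.31 to -0.87), -1.1 for sipa1 (-1.21 to -1.003), -1.08 for robo2 (-1.25 to -0.82), -1.05 for bsnb (-1.22 to -0.84), -1.04 for gucy1a2 (-1.14 to -0.90) and -0.89 for gart (-0.93 to -0.85). Of these, septin5b, sipa1, gucy1a2 and gart were called in all 12 fits, hbae5 in 11, sez6l2, slc1a2b, robo2 and bsnb in 8, col9a1b in 5 and pmelb in 2.

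Small RNA genes with at most 6 recovered reads in a library also passed the test, namely 5S_rRNA copies at 2.03, 1.94 and -1.38 and MIRLET7G at -2.10. Poly(A) selection and the similarity of 5S_rRNA copies bear on their counts, and this was not tested.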

How the results depend on the processing

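All 1986 called genes kept their sign in every fit that left out a library. Of them, 363 were called in every alternative fit, among 23, in which they were tested. Median ratio scaling and voom, which are among these fits, left the deposited scaling nearly as it was and do not test it. A gene left out by the filter of at least 5 FPKM, which kept 11982 genes, was not counted as lost there. With 1 library left out, the number called ran from 480 to 2839, the upward number from 282 to 1507 and the downward number from 198 to 1332. With no filter 1230 were called, 550 of them downward. Voom called 3000, of which 1601 downward. A minimum absolute difference of 0.5 left 1011, with 417 upward and 594 downward. TPM scaling gave 409 upward and 1698 downward, so that the upward share of calls went from 51.3% to 19.4%. Quantile normalization gave 658 upward and 1066 downward, an upward share of 38.2%. The cause of these shifts was not tested, beyond the different sums of FPKM that TPM scaling removes. For the named genes, 2293 of the refitted values stayed on their side of the threshold, 283 lost the call and 5 gained it. The sign changed in some setting for 8 of the 113 tested named genes and for 0 of the 97 called ones.

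The replicate block, with the number as a term, gave 1979 calls, of which 1728 were among the 1986, and changed 3 calls of named genes. The numbers did not pair the libraries, as same-numbered libraries did not deviate together. Centring by gene length, chosen after seeing the data, gave 1640. Depth limits the small RNA genes, and a whole larva does not tell cell number from RNA per cell.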

Other observations

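Some tissue genes fell with hypoxia in wild type and fell less, or did not fall, in the knockout. Gngt2a, a cone transducin subunit, measured 46.9, 46.9 and 41.5 FPKM in normoxic wild type, 55.7, 57.8 and 61.7 in normoxic knockouts, 19.3, 21.2 and 21.6 in hypoxic wild type and 47.9, 48.4 and 36.2 in hypoxic knockouts, and its difference was 0.68 ± 0.14 (adjusted p = 0.0178). Opn1mw2, a green cone opsin, measured 6.72, 7.67 and 7 FPKM in normoxic wild type, 8.35, 9.93 and 9.63 in normoxic knockouts, 5.35, 5.64 and 6.03 in hypoxic wild type and 11.2, 10.5 and 11.5 in hypoxic knockouts, with the knockout hypoxia libraries above all others and a difference of 0.51 ± 0.11 (adjusted p = 0.018). Gngt2a lost its call without wild-type normoxia 1 (adjusted p = 0.0506). Opn1mw2's call was lost under TPM scaling (adjusted p = 0.0594). Myl4, an atrial myosin light chain in mammals, measured 17.7, 17.1 and 20.3 FPKM in normoxic wild type, 19.8, 18.4 and 19.6 in normoxic knockouts, 13.6, 11.6 and 16.2 in hypoxic wild type and 23.3, 23 and 23.3 in hypoxic knockouts. It fell in wild type and rose in the knockout, a difference of 0.65 ± 0.13 (adjusted p = 0.018). Of 21 tested heart muscle genes 1, myl4, was called (4.76% upward against 4.74% of all genes), and the list's median was 0.05. Agr2, a disulfide isomerase of secretory cells, measured 33.3, 30.9 and 34.3 FPKM in normoxic wild type, 33.4, 35.2 and 34.9 in normoxic knockouts, 16, 15.6 and 18.1 in hypoxic wild type and 25, 27.2 and 24.6 in hypoxic knockouts, with falls in both genotypes and a difference of 0.53 ± 0.09 (adjusted p = 0.0102). Rbp4, the plasma retinol carrier, measured 542, 459 and 528 FPKM in normoxic wild type, 466, 450 and 448 in normoxic knockouts, 425, 345 and 390 in hypoxic wild type and 539, 527 and 473 in hypoxic knockouts, with a difference of 0.57 ± 0.12 (adjusted p = 0.0175). Rbp4's call was lost without wild-type normoxia 1 (adjusted p = 0.0507).

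Other tissue genes were also more upward in the knockout. Pvalb4, a muscle parvalbumin, measured 212, 221 and 223 FPKM in normoxic wild type, 273, 261 and 280 in normoxic knockouts, 218, 219 and 206 in hypoxic wild type and 362, 363 and 330 in hypoxic knockouts, and the knockout hypoxia libraries exceeded all others. Its difference was 0.40 ± 0.07 (adjusted p = 0.013). Anxa2a, an annexin of skin and other epithelia, measured 39.98, 37 and 41.1 FPKM in normoxic wild type, 36.7, 37.4 and 33 in normoxic knockouts, 53, 45.6 and 48.3 in hypoxic wild type and 74.4, 71.1 and 64.3 in hypoxic knockouts, with a difference of 0.64 ± 0.10 (adjusted p = 0.00891). Smyhc2, a slow myosin heavy chain, measured 22.8, 21.8 and 22.6 FPKM in normoxic wild type, 22.8, 23.2 and 23.5 in normoxic knockouts, 24.8, 23.6 and 25.5 in hypoxic wild type and 32.8, 33.1 and 33.3 in hypoxic knockouts, with a difference of 0.36 ± 0.06 (adjusted p = 0.0125). Smyhc2's call was lost under TPM scaling (adjusted p = 0.0619). Fabp2, the intestinal fatty acid binding protein, measured 152, 138 and 131 FPKM in normoxic wild type, 181, 205 and 193 in normoxic knockouts, 80.5, 54.8 and 71.1 in hypoxic wild type and 153, 158 and 135 in hypoxic knockouts. It fell in both genotypes and less in the knockout, with 0.66 ± 0.16 (adjusted p = 0.0292). Fabp2 lost its call with no filter, under quantile normalization and without wild-type normoxia 3, knockout hypoxia 2, knockout normoxia 1, knockout normoxia 3, knockout hypoxia 1 or wild-type normoxia 1 (adjusted p from 0.0512 to 0.0916).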
